A study of Sus scrofa with 6 samples.

Results

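Glucose enters fat cells through transporters and is split in the cytosol by the enzymes of glycolysis, which were followed here in pig backfat with 14 probe sets of 8 genes, out of 23999 probe sets that are no controls and 6765 genes named by them. The genes were the insulin-responsive glucose transporter SLC2A4 (GLUT4), hexokinase HK1, the liver-type phosphofructokinase PFKL, triose phosphate isomerase TPI1, glyceraldehyde 3-phosphate dehydrogenase GAPDH, phosphoglycerate kinase PGK1, enolase ENO1 and lactate dehydrogenase LDHA. Each probe set whose single annotated gene symbol was on the list was taken and kept separate. HK2 and ALDOA were on the list as well, but no probe set carries either as its single symbol, and they were not analysed here. A further 9 control probe sets for GAPDH served as a side check.

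In adipocytes insulin brings SLC2A4 to the cell surface, hexokinase traps the glucose as glucose 6-phosphate, and the lower steps of glycolysis yield pyruvate. Pyruvate feeds mitochondrial acetyl-CoA, from which fat is built, or becomes lactate, and a side branch at the triose phosphates gives the glycerol backbone of triacylglycerol. In pigs, adipose tissue is the main site of fatty acid synthesis.

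The barrows were male pigs castrated at 7 days of age, and the boars were their intact full brothers. All came from Pietrain sires and Landrace dams, were weaned at 30 days, had free access to feed and were killed at 175 days. The middle layer of backfat was sampled at the sixth rib. RNA of 5 animals went into each pool and each pool onto an Affymetrix array of its own, so there were 3 barrow and 3 boar arrays from 15 pairs of brothers. The replicate is thus a pool, and the p-values reflect how pools varied; variation from pig to pig was not measured. In bulk tissue fewer cells of a type and less RNA per cell cannot be told apart.

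Signals are linear MAS5 intensities, with array medians of 162 to 173 on arrays too few for high precision. The values were compared as log2(signal + 16), barrow minus boar, with limma over 14399 probe sets, the brightest 60% by mean signal, and adjusted p-values (Benjamini-Hochberg) were computed over all of them with a threshold of 0.05. Pools of 1 group correlated at 0.978 to 0.988, and barrow with boar pools at 0.975 to 0.983, so the ranges overlapped. The log2 ratio of the 3′ to the 5′ GAPDH control was 1.28 ± 0.18 in barrow pools and 1.32 ± 0.06 in boar pools (SD, n = 3 each, exact permutation p = 0.8, 2-sided; the smallest p that 3 against 3 allows is 0.1). The adipocyte markers were bright in both groups, and all 7 genes of that list found on the array passed the filter. All 16 probe sets of 12 skeletal muscle marker genes lay below the filter, and their signals summed to 547 to 619 in barrow pools and 482 to 539.9 in boar pools.

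Of the 14 member probe sets 11 passed the filter on dim probe sets, from all 8 genes. In barrow fat 1 of the 11 rose, a GAPDH probe set, where 0.701% of all tested probe sets were called higher. No member fell by limma (0 also at an unadjusted p under 0.05), against 0.458% of all tested probe sets (6.22% at an unadjusted p under 0.05). At an unadjusted p under 0.05, 5 of 11 were higher, where 5.96% of all tested probe sets were. All 11 log2 differences were above 0, as were 46.6% of all tested, and their median was 0.27, against -0.01 over all tested. In 6 of the 11 the 3 barrow pools all lay above the 3 boar pools, as they did in 8.38% of all tested, and in none did they all lie below, as they did in 9.76%. The 3 tested GAPDH probe sets are annotated to 1 gene, as are the 2 of SLC2A4, so the 11 are not separate observations.

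Deviations from the group mean correlated at 0.12, 0.17 and 0.26 between barrow and boar pools of the same replicate number. What the numbers share is not stated in the labels. The fit with that number as a block is given as well. With it, 3 of the 11 member probe sets rose (GAPDH, HK1 and PGK1), where 1.49% of all tested probe sets were called higher. With array weights 4 rose (the same 3 and ENO1), where 1.62% of all tested probe sets were called higher.

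**Figure D1:**
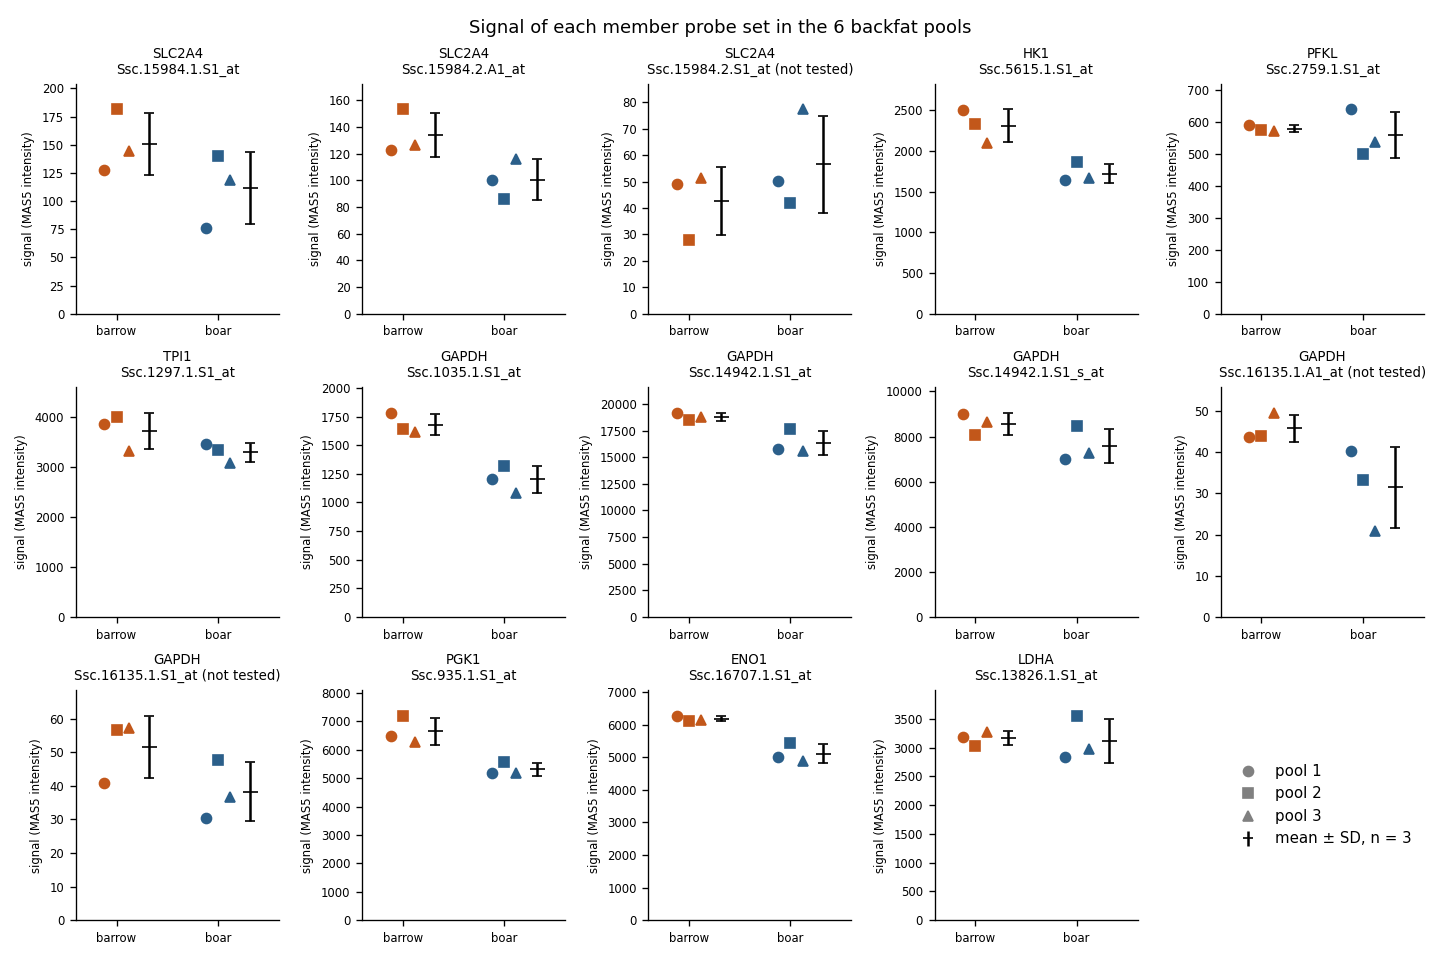
Signal (MAS5 intensity, linear axis from 0) of the 14 member probe sets in 3 barrow and 3 boar pools; point shapes give the pool number and black bars the mean ± SD (n = 3). HK1, PGK1, ENO1, Ssc.15984.2.A1_at of SLC2A4 and 2 of the 3 bright GAPDH probe sets have all barrow points above all boar points, while those of PFKL, TPI1 and LDHA overlap.

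Glucose uptake was measured dimly. SLC2A4 probe set Ssc.15984.1.S1_at read 127, 181 and 144 in barrow pools 1 to 3 and 76.4, 139.7 and 119 in boar pools 1 to 3. Its log2 difference was 0.41 (95% CI -0.09 to 0.91, limma adjusted p = 0.53), and the groups overlapped. Each barrow pool lay above the boar pool of the same number, but how often this occurred over all tested probe sets was not counted. Without boar replicate 1 the log2 difference was 0.19 (limma adjusted p = 0.89). Probe set Ssc.15984.2.A1_at read 123, 153 and 126 in barrow pools and 100.3, 85.6 and 116 in boar pools, without overlap, with a log2 difference of 0.37 (95% CI -0.05 to 0.78, limma adjusted p = 0.48). These signals lie close to the lowest mean tested, a signal of about 92.7. The remaining SLC2A4 probe set, Ssc.15984.2.S1_at, lay below the filter and pointed the other way, at 48.9, 27.8 and 51.4 in barrow pools and 50.2, 42.0 and 77.3 in boar pools. It comes from the same source sequence as Ssc.15984.2.A1_at, and in Affymetrix names the letters S and A mark opposite orientations of a sequence cluster.

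Hexokinase HK1, the broadly expressed enzyme that phosphorylates glucose and binds to mitochondria, had the second greatest difference of the 11. It read 2499, 2335 and 2103 in barrow pools and 1645, 1861 and 1663 in boar pools. The lowest barrow pool was above the highest boar pool. The signal was 1.34-fold higher in barrows (95% CI 1.16 to 1.54), with a limma adjusted p of 0.062, and 0.036 with the replicate block.

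Phosphofructokinase commits the sugar to glycolysis, and PFKL encodes its liver-type subunit. PFKL read 589, 574 and 569 in barrow pools and 638, 499.7 and 535 in boar pools. The barrow values lay within the range of the boar values. The log2 difference was 0.06, and its 95% interval of -0.19 to 0.31 leaves changes of either sign possible (limma adjusted p = 0.90).

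TPI1 interconverts the 2 triose phosphates that aldolase makes. It read 3861, 3989.9 and 3310.2 in barrow pools and 3446, 3334 and 3082 in boar pools. Barrow pool 3 lay among the boar pools, so the groups overlapped. Each barrow pool exceeded its numbered counterpart. The log2 difference was 0.17 (95% CI -0.02 to 0.37, limma adjusted p = 0.47).

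GAPDH oxidises glyceraldehyde 3-phosphate and yields NADH, and is often used as a reference gene. Probe set Ssc.1035.1.S1_at read 1785, 1641 and 1617 in barrow pools and 1207, 1316 and 1082 in boar pools. The groups were well apart. The signal rose 1.40-fold in barrow fat (95% CI 1.21 to 1.62, limma adjusted p = 0.040), the greatest difference of the 11. Leaving out 1 pool ended the call in 4 cases: without barrow replicate 1 (limma adjusted p = 0.17), without barrow replicate 3 (0.089), without boar replicate 1 (0.19) and without boar replicate 3 (0.20), while the log2 difference stayed between 0.41 and 0.55 when any 1 pool was left out.

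The bright GAPDH probe sets showed smaller differences. Ssc.14942.1.S1_at read 19179.7, 18446 and 18755 in barrow pools and 15808, 17672 and 15558 in boar pools, without overlap. Its log2 difference was 0.20 (95% CI 0.06 to 0.35, limma adjusted p = 0.21). Signals of this size are among the brightest on the arrays, whose maxima were 27591 to 32517. Ssc.14942.1.S1_s_at read 9014, 8054 and 8660.5 in barrow pools and 7010.4, 8463 and 7274 in boar pools, with boar pool 2 inside the barrow range. Its log2 difference was 0.18 (95% CI -0.003 to 0.36, limma adjusted p = 0.42). The ending "_s" in Affymetrix names marks probes shared by several transcripts, and mammalian genomes hold many processed copies of GAPDH, so the source of the signal is less certain there.

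A pair of further GAPDH probe sets was dim and not tested. Ssc.16135.1.A1_at read 43.8, 43.9 and 49.6 in barrow pools and 40.3, 33.2 and 20.9 in boar pools. Ssc.16135.1.S1_at read 40.9, 56.5 and 57.3 in barrow pools and 30.4, 47.8 and 36.5 in boar pools. They are opposite orientations of 1 sequence cluster, and neither signal is shown to exceed background.

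All 9 GAPDH control probe sets, which lie outside the fit, also had log2 differences above 0, from 0.10 to 0.30 with a median of 0.24. In 7 of the 9 all barrow pools were above all boar pools. The brightest, AFFX-Ssc-gapdh-3_at, read 18762, 17859 and 17716 in barrow pools and 15168, 16694 and 14742 in boar pools (log2 difference 0.22, exact permutation p = 0.1, 2-sided, the smallest p that 3 against 3 pools allow). The exceptions were AFFX-Ss_Gapdh_5_at (0.10, exact permutation p = 0.4) and AFFX-Ss_Gapdh_M_at (0.30, exact permutation p = 0.2). These probe sets are annotated to the same gene and were read on the same 6 arrays as the GAPDH members. They are thus not independent of the members and add no pools.

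**Figure D2:**
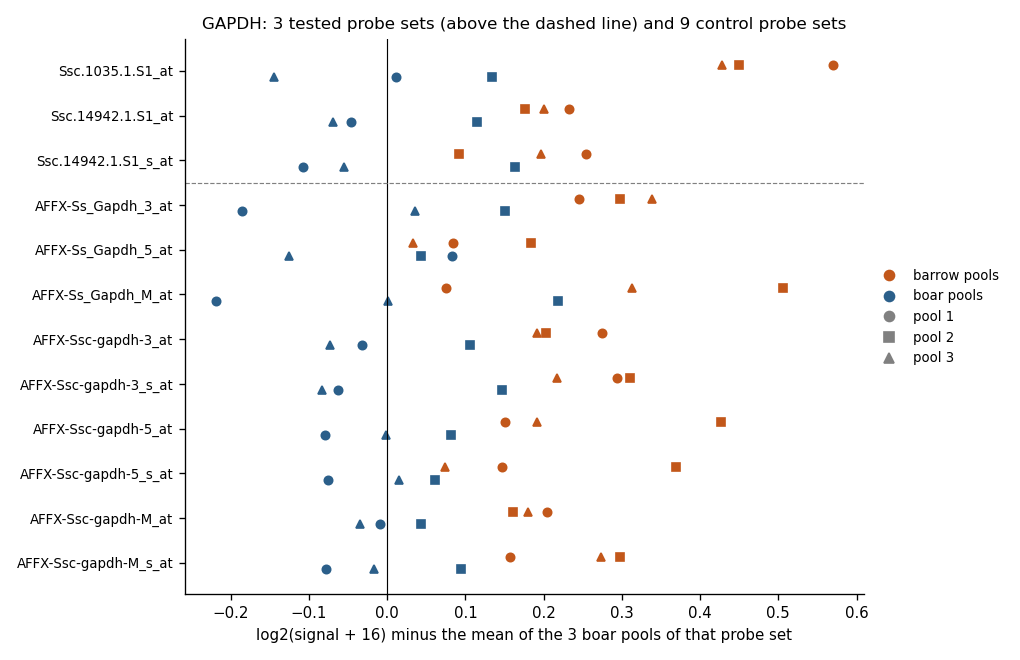
Each GAPDH probe set's log2(signal + 16) in every pool, relative to the mean of its 3 boar pools; the 3 tested probe sets are above the dashed line and the 9 controls below it. Barrow points lie to the right of the boar points in 2 of the 3 tested probe sets and in 7 of the 9 controls, and boar pool 2 is the highest boar pool in all but AFFX-Ss_Gapdh_5_at.

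PGK1 makes the first ATP of the pathway by removing a phosphate from 1,3-bisphosphoglycerate. It read 6479.5, 7196 and 6282 in barrow pools and 5168, 5575 and 5192 in boar pools. The groups did not overlap, and each barrow pool exceeded its numbered counterpart. The signal was 1.25-fold higher in barrows (95% CI 1.12 to 1.40), with a limma adjusted p of 0.078, and 0.029 with the replicate block.

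Enolase ENO1 forms phosphoenolpyruvate. It read 6269, 6112 and 6154 in barrow pools and 5015, 5448 and 4872 in boar pools. The 3 barrow pools lay close together and above all boar pools. The signal was 1.21-fold higher in barrows (95% CI 1.09 to 1.34), with a limma adjusted p of 0.097, and 0.067 with the replicate block.

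LDHA reduces pyruvate to lactate. It read 3177, 3034 and 3279 in barrow pools and 2837, 3553 and 2968 in boar pools. Boar pool 2 was the highest of all 6 and boar pool 1 the lowest, with the barrow pools between them. The log2 difference was 0.03 (95% CI -0.18 to 0.23, limma adjusted p = 0.95). Whether LDHA differed from those genes in its response was not tested.

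**Figure D3:**
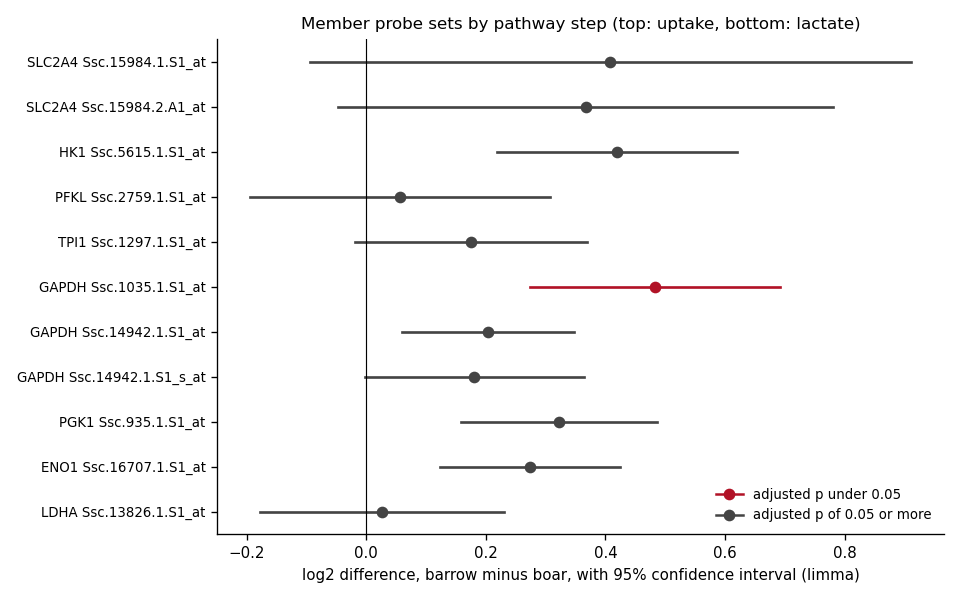
Log2 difference, barrow minus boar, of the 11 tested member probe sets with the 95% confidence interval of limma, from uptake (top) to lactate (bottom). All 11 points lie right of 0, the intervals of HK1, PGK1, ENO1 and 2 GAPDH probe sets exclude 0, and Ssc.1035.1.S1_at of GAPDH is the 1 probe set past the adjusted threshold.

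Among the members barrow pool 1 was the highest barrow pool in 6 of the 11 probe sets, barrow pool 2 in 4 and barrow pool 3 in 1, against 31.96%, 35.5% and 32.6% of all tested probe sets. Boar pool 2 was the highest boar pool in 8 of the 11, as it was in 33.6% of all tested probe sets, and the 11 include 3 of GAPDH. The brightest tested probe set of each of the 8 genes, centred over the 6 arrays and averaged, gave log2 levels of 0.12, 0.17 and 0.07 in barrow pools 1 to 3 and -0.18, -0.02 and -0.16 in boar pools 1 to 3. Over the 6 pools this profile correlated best with PSAT1, an enzyme of serine synthesis that starts from a glycolytic intermediate (r = 0.995), with TALDO1 and PGD of the pentose phosphate pathway (r = 0.991 and 0.989), with HACD3, an enzyme of fatty acid elongation (r = 0.984), and with the adiponectin receptor ADIPOR2 (r = 0.984). These are Pearson correlations over 6 arrays, picked as the highest among 7180 named probe sets, and are given as a description. The profile itself separates barrow from boar pools, so probe sets picked for likeness to it are higher in barrows by that choice.

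Other genes of glucose and pyruvate handling were represented by 61 probe sets of 45 genes, of which 43 probe sets of 37 genes were tested. Of these 43, 2 rose and 0 fell by limma, against 0.701% and 0.458% of all tested probe sets. At an unadjusted p under 0.05, 8 were higher and 2 lower, against 5.96% and 6.22% of all tested. With the replicate block 4 rose, against 1.49% of all tested. Their median log2 difference was 0.07, with 29 of 43 above 0, against 46.6% of all tested.

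Both calls were fructose-1,6-bisphosphatases, which reverse the phosphofructokinase step and belong to gluconeogenesis. FBP2, known as the muscle form, read 1524, 1442 and 1557 in barrow pools and 1037, 943 and 976 in boar pools. It rose 1.52-fold (95% CI 1.34 to 1.73, limma adjusted p = 0.0087). FBP1, known as the liver form, read 1350.3, 1194 and 1178 in barrow pools and 822, 614 and 839 in boar pools, and rose 1.64-fold (95% CI 1.35 to 1.98, limma adjusted p = 0.028). Neither pair of groups overlapped. Without barrow replicate 1, boar replicate 1 or boar replicate 3 the adjusted p was 0.051 to 0.063 for FBP2 and 0.071 to 0.12 for FBP1, and FBP1 was also lost without barrow replicate 3 (adjusted p = 0.077). Both calls ended when arrays were scaled on the GAPDH controls, as described further on. At the same step the muscle-type phosphofructokinase PFKM had a log2 difference of 0.41 (limma adjusted p = 0.34), without overlap.

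Among the transporters SLC2A5 (GLUT5), which carries fructose, had the greatest difference. It read 1245, 1611 and 1114 in barrow pools and 492, 1021 and 417 in boar pools, all barrow pools above all boar pools. The signal was 2.17-fold higher in barrows (95% CI 1.43 to 3.28), with a limma adjusted p of 0.092, and 0.0081 with the replicate block. Without boar replicate 2 it rose by 1.497 on the log2 scale (limma adjusted p = 0.0027), where 0.785% of all tested probe sets were called higher. With any other single pool left out SLC2A5 was not called, with log2 differences of 0.87 to 1.23 (limma adjusted p = 0.14 to 0.38). SLC2A12 and SLC2A8 had log2 differences of 0.37 and 0.15 (limma adjusted p = 0.48 and 0.76). Of the 6 transporters on this list 5 were found on the array. All 5 passed the filter, and their differences ran from -0.04 to 1.12.

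Around the members, glucose 6-phosphate isomerase GPI, the step after hexokinase, read 3777, 3732 and 3580.0 in barrow pools and 3093, 3247 and 2812 in boar pools (1.21-fold, 95% CI 1.08 to 1.36, limma adjusted p = 0.14). The groups did not overlap. The ADP-dependent glucokinase ADPGK and the hexokinase HK3 had -0.22 and 0.10 (limma adjusted p = 0.62 and 0.91). In lower glycolysis the aldolase ALDOC had 0.07, the mutase BPGM 0.18 and the pyruvate kinase PKM 0.13 (limma adjusted p = 0.72 to 0.77).

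Pyruvate dehydrogenase turns pyruvate into acetyl-CoA. Its beta subunit PDHB read 6353, 6435 and 5971 in barrow pools and 5137, 5311 and 4911 in boar pools. It was 1.22-fold higher in barrows (95% CI 1.10 to 1.35), with a limma adjusted p of 0.080, and 0.039 with the replicate block. The alpha subunit PDHA1 was 1.23-fold higher (limma adjusted p = 0.24), also without overlap. LDHD, which oxidises D-lactate, had a log2 difference of 0.53 (limma adjusted p = 0.38) and 0.10 in its other tested probe set.

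Of the 14 differences below 0, 5 came from the 9 tested probe sets of uptake and gene regulators, and 0 from lower glycolysis. In 4 of the 43 tested probe sets, of TBC1D1, STX4, PDK3 and PC, all barrow pools lay below all boar pools, against 9.76% of all tested. In 8 of the 43 all barrow pools lay above all boar pools, against 8.38% of all tested. PCK1, the key enzyme of glyceroneogenesis in fat, read 2486, 3745 and 2777 in barrow pools and 3668, 4066 and 3465 in boar pools (log2 difference -0.33, limma adjusted p = 0.34). Each barrow pool lay below its numbered counterpart, but barrow pool 2 lay among the boar pools. Without barrow replicate 2 the gene fell by 0.50 on the log2 scale (limma adjusted p = 0.021), where 0.91% of all tested probe sets were called lower. Apart from the scaling on the GAPDH controls, this was the only call of PCK1 in 15 alternatives. Its differences there ran from -0.50 to -0.21, with a limma adjusted p of up to 0.67. GPD1 and GPD1L, which make glycerol 3-phosphate, had -0.07 and 0.05 (limma adjusted p = 0.82 and 0.85). TBC1D1, a Rab regulator of glucose transporter traffic, had -0.38 (limma adjusted p = 0.18), without overlap, and -0.17 and -0.29 in its other probe sets. The syntaxin STX4, which docks SLC2A4 vesicles, had -0.21 (limma adjusted p = 0.42) and 0.12 in its other probe set. TXNIP, a restraint on glucose uptake, had 0.07 (limma adjusted p = 0.80). PDK3, a kinase that inhibits pyruvate dehydrogenase, and pyruvate carboxylase PC had -0.28 and -0.12 (limma adjusted p = 0.42 and 0.50), and are named after their values were seen.

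**Figure D4:**
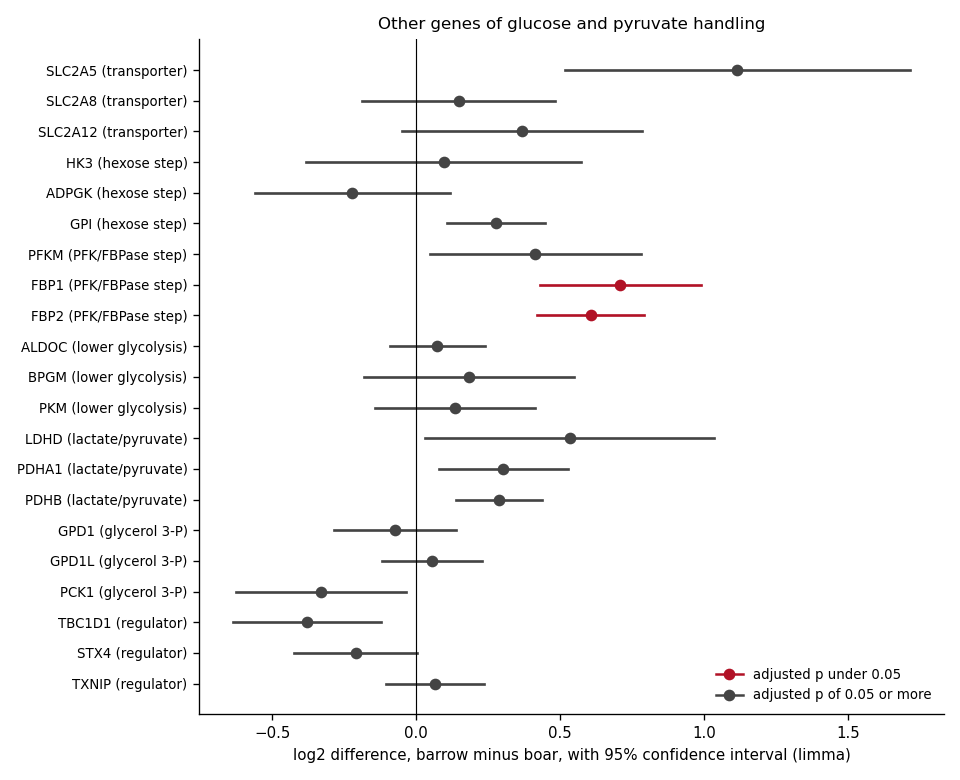
Log2 difference, barrow minus boar, with the 95% confidence interval of limma for 21 other genes of glucose and pyruvate handling. They are those past the threshold and up to 3 per role with the smallest unadjusted p. PDK3 and PC, which the text also names, had differences below 0 and are not shown. FBP1 and FBP2 (red) passed the adjusted threshold, SLC2A5 has the greatest difference at 1.12, and TBC1D1 has the lowest at -0.38.

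Markers of other cell types did not all stand level between the groups. The 14 endothelial probe sets (7 of 8 genes found) summed to 17244 to 17795 in barrow pools and 19271 to 20309 in boar pools. Of the 10 tested 1, of TEK, fell (log2 difference -0.47, limma adjusted p = 0.047), where 0.458% of all tested probe sets were called lower. The 10 ran from that value to -0.001 for CDH5, and the other tested TEK probe set had -0.20 (limma adjusted p = 0.73). The 8 macrophage probe sets (6 of 10 genes found) summed to 6779.7 to 8179 in barrow pools and 7499 to 9580.2 in boar pools, with a median log2 difference of -0.33 over the 7 tested. Of these C1QA, a complement component made by macrophages, had -0.44 (limma adjusted p = 0.13). It fell with the replicate block (limma adjusted p = 0.035), where 123 of all 14399 tested probe sets were called lower. The 7 tested ran from -0.70 to 0.15, and both ends were probe sets of CD163 (limma adjusted p = 0.094 and 0.69). The 10 adipocyte probe sets (7 of 10 genes found) summed to 88826 to 101453 in barrow pools and 89962 to 96881 in boar pools. Of these 1, of LEP, rose, where 0.701% of all tested probe sets were called higher. With the replicate block ADIPOR2 rose as well (log2 difference 0.34, limma adjusted p = 0.020, and 0.080 without the block), where 1.49% of all tested probe sets were called higher. The 3 erythrocyte probe sets (3 of 7 genes found) summed to 1353 to 1643 in barrow pools and 1316 to 1390.2 in boar pools. Their median log2 difference was 0.32, with 0.32 for ALAS2, 0.34 for AHSP and -0.04 for HBB (limma adjusted p = 0.24, 0.60 and 0.93). The 6 lymphocyte probe sets (5 of 8 genes found) summed to 317 to 461 in barrow pools and 320.2 to 602 in boar pools. The part of these cell types in the differences above was not tested.

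Among the members, the direction of small differences changed under 1 of the scalings, that on the GAPDH controls. The authors' scaling, quantile normalization and centring on the median all gave a positive median of the 11 members (0.27, 0.25 and 0.30). When each array was instead scaled on its 9 GAPDH controls, an alternative chosen after seeing the data, the log2 differences of all probe sets shifted by -0.23. The members' median became 0.045, against -0.24 over all tested, with 6 of 11 above 0 and none past the threshold (1 at an unadjusted p under 0.05). PFKL, TPI1, the GAPDH probe sets of cluster 14942 and LDHA then lay below 0. FBP1 and FBP2 had 0.48 and 0.38 and no longer passed (limma adjusted p = 0.073 and 0.067), while SLC2A5 rose and PCK1, TBC1D1 and PC fell. The calls over all probe sets changed to 45 higher (0.313%) and 835 lower (5.8%), against 101 higher and 66 lower at the authors' scaling. In that scaling the mean log2 signal of the 9 GAPDH controls is equal in both groups by construction. GAPDH is itself a member and its controls were higher in barrow pools, so the downward shift was set by that choice.

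**Figure D5:**
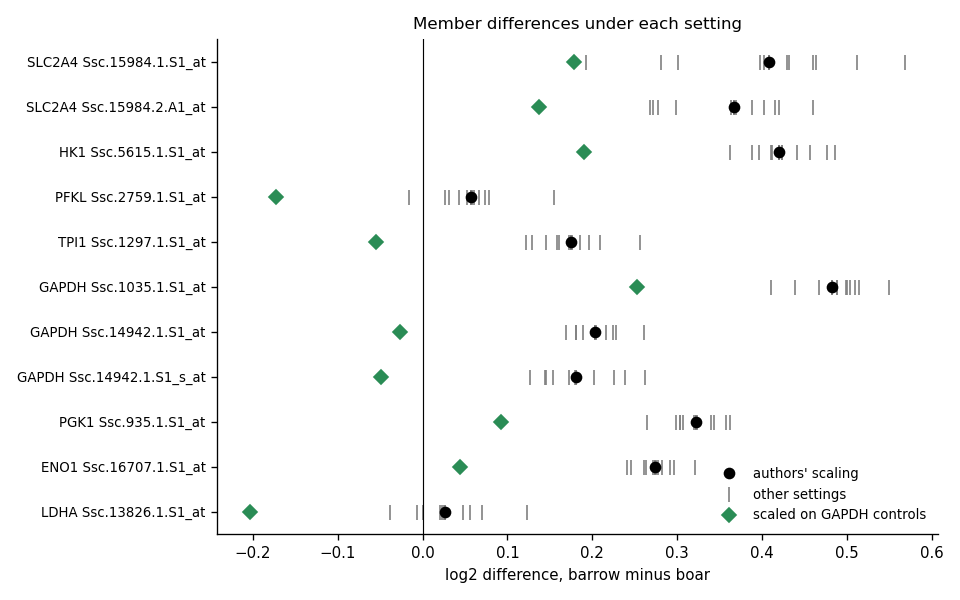
Log2 difference, barrow minus boar, of the 11 tested member probe sets at the authors' scaling (black), under the other settings (grey ticks) and after scaling each array on its GAPDH controls (green). Grey ticks cross 0 for PFKL and LDHA, and the green points lie lower by 0.23 throughout, 5 of them below 0.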

How the data were processed

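The authors deposited a table of linear signal intensity values, 1 for each probe set on each array, from MAS5 per the submitters' processing notes; its version and settings the sources used here do not give, and detection calls were not used. Array means, trimmed by 2% at each end, were 500.09 to 500.10, as tested on the values. The platform annotation gives 1 symbol for 10099 of 24123 probe sets, several for 198 and none for 13826; all 14 member probe sets were matched by gene identifier to the RefSeq table (Sscrofa11.1). No coordinates are printed, since the array names no build. The fit did not include the 124 control probe sets. Values were taken as log2(signal + 16), the upper 60% by mean were kept, and barrow minus boar was fitted under R 4.3.3 with limma 3.58.1 (lmFit, then eBayes with trend, 2-sided, Benjamini-Hochberg adjustment over 14399 probe sets). Folds are on the log2(signal + 16) scale and understate changes of dim genes. The code was tested on simulated data.

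Residuals of barrow and boar pools with the same replicate number correlated at 0.12, 0.17 and 0.26, above the minimum of 0.1 for each pair. Those of pools with unlike numbers correlated at -0.19 to -0.01. The labels' numbers were therefore taken to pair the pools in the fit with a block. What the numbers share is not stated in the labels. The fit without a block is the comparison given, and the blocked value is added for members, other pathway genes and markers where the call differs.

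The members and lists were chosen with earlier results of these data known. Named are every member probe set, and of the other pathway genes those past the threshold and up to 3 per role with the smallest unadjusted p. The 5 named probe sets most correlated with the members are also given. Alternatives tried were quantile normalization, median centring, pseudocounts of 1 and 64, no filter, the upper 40%, no intensity trend, array weights, the replicate block, leaving out each pool and, added after seeing the data, scaling on the GAPDH controls.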

Additional observations from a re-analysis of the deposited data

How the results depend on the processing

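With 3 pools a group, small differences can be missed, and dim signals such as those of SLC2A4 are not shown to exceed background because detection calls were not used. Over all probe sets 167 were called at the authors' scaling, 96 without a filter, 32 without an intensity trend, 425 with array weights, 338 with the replicate block, 880 when scaled on the GAPDH controls, and 24 to 291 when 1 pool was left out. Calls among the members numbered 1 at the authors' scaling, 4 with array weights, 3 with the replicate block, 0 without a filter or without an intensity trend (limma; 5 in each case at an unadjusted p under 0.05), 0 when scaled on the GAPDH controls (1 at an unadjusted p under 0.05) and 0 to 1 when 1 pool was left out (5 to 7 at an unadjusted p under 0.05). Those among the other pathway probe sets numbered 2 at the authors' scaling, 4 with array weights, 4 with the replicate block, 1 without a filter, 0 without an intensity trend (limma; 7 higher and 2 lower at an unadjusted p under 0.05), 4 when scaled on the GAPDH controls (1 higher, 3 lower) and 0 to 4 when 1 pool was left out (6 to 10 higher and 1 to 3 lower at an unadjusted p under 0.05). The replicate block added HK1 and PGK1 among the members (log2 differences 0.42 and 0.32, adjusted p = 0.036 and 0.029) and SLC2A5 and PDHB among the others; it changed no other call among the members and pathway genes tested. Array weights gave HK1 0.46, PGK1 0.30 and ENO1 0.29 (limma adjusted p = 0.019, 0.032 and 0.033). The GAPDH call on Ssc.1035.1.S1_at was lost without a filter (0.48, adjusted p = 0.067), without an intensity trend (0.48, adjusted p = 0.15) and when scaled on the GAPDH controls (0.25, adjusted p = 0.13), and its difference was 0.41 to 0.55 when 1 pool was left out. FBP1 also lost its call without a filter (adjusted p = 0.057) and, like FBP2, without an intensity trend (adjusted p = 0.12 and 0.066) and when scaled on the GAPDH controls (0.48 and 0.38, adjusted p = 0.073 and 0.067). The members' median was 0.045 when scaled on the GAPDH controls and 0.20 to 0.30 under the others. That scaling, which lowers every difference by 0.23, turned PFKL to -0.17, TPI1 to -0.055, GAPDH to -0.026 and -0.049 (Ssc.14942.1.S1_at and Ssc.14942.1.S1_s_at), LDHA to -0.20, SLC2A8 to -0.082, HK3 to -0.13, ALDOC to -0.16, BPGM to -0.047, PKM to -0.095, GPD1L to -0.18 and TXNIP to -0.16. TXNIP was -0.012 under quantile normalization. With 1 pool left out the differences ran from -0.016 to 0.16 for PFKL, -0.038 to 0.12 for LDHA, -0.15 to 0.32 for HK3, 0.19 to 0.57 for SLC2A4 (Ssc.15984.1.S1_at), 0.29 to 0.74 for LDHD, 0.25 to 0.53 for PFKM and -0.0091 to 0.14 for TXNIP. The other tested members and, for the remaining pathway genes named, the probe set with the smallest p kept their direction under each alternative run, and the 9 GAPDH controls did so under the 10 alternatives run for them. The other probe sets of those genes, PDK3, PC, the genes most like the members and the markers were not followed across the alternatives. Apart from the scaling shift and the smaller numbers of pools or tested probe sets, the cause of these changes was not tested.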

Other observations

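Of the 61 probe sets of other pathway genes 18 lay below the filter and were not tested. Among them are isozymes best known from other tissues, named here after their values were seen. The muscle forms PGAM2 and ENO3 averaged 32.1 ± 14.5 and 71.1 ± 13.0 in barrow pools and 44.5 ± 6.65 and 58.8 ± 16.8 in boar pools (SD, n = 3 each). The neuronal enolase ENO2 averaged 72.8 ± 15.9 in barrow pools and 83.0 ± 11.6 in boar pools. The germ cell forms PGK2 and LDHC averaged 18.7 ± 17.2 and 41.7 ± 7.46 in barrow pools and 4.58 ± 2.74 and 42.2 ± 21.7 in boar pools. None of these signals is shown to exceed background, and the groups overlapped in each of these 5 probe sets.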
